A study of Patiria miniata with 46 samples.

Results

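Posterior Hox genes were followed section by section through frozen arms of a sea star, Patiria miniata, known as the bat star. They were chosen by name: every row of the count table whose gene symbol starts with Hox11-13 was taken, whatever its values, which gave 5 genes (Hox11-13a, Hox11-13b, Hox11-13c, Hox11-13d and Hox11-13e) of 23869 loci, of which 66 carry a gene symbol. The other 8 Hox genes of the table (Hox1, Hox2, Hox3, Hox4, Hox5, Hox7, Hox8 and Hox9-10) served for comparison.

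Arms of young animals of about 2 cm, with no treatment given in the labels, were embedded, cryosectioned, and polyadenylated RNA of each section was sequenced. The 46 libraries form 3 series: 22 proximo-distal sections along the length of an arm and 8 oral-aboral sections from face to face of an arm, both of specimen 1, and 16 left-right sections across the width of an arm of specimen 2. The question put to each series is at which positions the posterior Hox genes were read. Section numbers come from the labels, which do not say at which end of an axis section 1 lies, so all directions below are by number.

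There is 1 library per position and 1 arm per series, so a section is not a replicate of its neighbours, which adjoin it in the tissue. P-values of the fits therefore measure the scatter of sections around a fitted profile within that arm and are approximate. Permutation tests of a ratio, given further below, treat sections as interchangeable, which neighbours are not. Their p-values are therefore approximate too, although every arrangement was counted. Total counts ranged from 196002 to 680685 per section in the proximo-distal series, from 2573762 to 6921408 in the oral-aboral series and from 250704 to 1591759 in the left-right series. Levels are given in CPM, counts per 1000000. A count of 0 in 1 library (up to 3 counts allowed) permits as much as 15.3 CPM in proximo-distal section 2, 12.0 CPM in left-right section 14 and 1.17 CPM in oral-aboral section 6, the shallowest libraries of their series. Reads carry no molecular identifiers, so such limits and all intervals below, which are at 95%, cover counting error alone. From proximo-distal section 12 on, a single unnamed locus took 12.2% to 50.3% of all counts, against 0.453% to 2.16% in sections 1 to 11.

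Hox genes encode homeodomain transcription factors that give cells of bilaterian embryos an identity by position along the head-to-tail axis, and the posterior class marks the tail end in most animals. Echinoderm adults have a radial body with no obvious head-to-tail axis, which makes the place of the posterior class in an arm a matter of interest. In sea urchins, Hox11/13b takes part in hindgut formation in the embryo, and Hox7, Hox8, Hox9/10 and posterior Hox genes are expressed one after another along the coelomic mesoderm of the larva. Roles of the 5 sea star genes are not assigned here beyond the class their symbols give.

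The 5 genes differed in where they were read. Hox11-13b and Hox11-13d were read in all 3 series, Hox11-13a and Hox11-13c almost only in the oral-aboral series, and Hox11-13e had 1 count in all. Summed over sections, Hox11-13b had 152 counts in the proximo-distal, 910 in the oral-aboral and 204 in the left-right series, which is 17.5 CPM (exact Poisson interval 14.8 to 20.5), 21.5 CPM (20.1 to 23.0) and 11.8 CPM (10.2 to 13.5) of the summed totals. Hox11-13d had 100, 1458 and 899 counts in the same order of series, or 11.5 CPM (9.37 to 14.0), 34.5 CPM (32.7 to 36.3) and 51.8 CPM (48.5 to 55.3). The table gives no gene lengths, so the levels of different genes are not compared with each other, and levels in different series come from separate arms and were not tested against each other. In sections of whole tissue, fewer cells that express a gene and less RNA of it per cell cannot be told apart.

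Across the oral-aboral series, Hox11-13b and Hox11-13d were both highest in sections 7 and 8, at one face of the arm. Normalised CPM, which are counts per 1000000 of the library size scaled by TMM, were 8.46, 3.80, 3.11, 6.95, 19.4, 23.5, 83.1 and 63.7 for Hox11-13b in sections 1 to 8. Hox11-13b was lowest in sections 2 and 3, already higher in sections 5 and 6, and 3.11 to 83.1 normalised CPM at its extremes. In the order of levels the counting intervals of section 7 (73.5 to 93.6) and section 8 (56.8 to 71.3) did not overlap, whereas those of sections 5 (16.2 to 23.2) and 6 (18.1 to 30.0) did, as did those of sections 1 (6.40 to 11.0) and 4 (5.16 to 9.17). The mean was 73.4 ± 13.7 in sections 7 and 8 (SD, n = 2 sections), against 13.2 ± 9.76 in sections 3 to 6 (n = 4) and 6.13 ± 3.29 in sections 1 and 2 (n = 2). That is 5.54-fold higher than in sections 3 to 6 and 12.0-fold higher than in sections 1 and 2. Sections 7 and 8 were grouped with the profile known, as the 2 highest, so these folds and those of Hox11-13d are a description.

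Hox11-13d read 28.3, 16.1, 11.5, 14.3, 16.9, 22.8, 84.0 and 118.8 normalised CPM in oral-aboral sections 1 to 8. Unlike Hox11-13b it peaked in section 8, where its interval (109.2 to 129.1) lay above that of section 7 (74.4 to 94.5), and section 1 (24.5 to 32.7) stood above section 2 (12.6 to 20.3). Its mean was 101.4 ± 24.6 in sections 7 and 8, against 16.4 ± 4.81 in sections 3 to 6 and 22.2 ± 8.66 in sections 1 and 2. The level in sections 7 and 8 was 6.20-fold that of sections 3 to 6 and 4.57-fold that of sections 1 and 2.

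**Figure D1:**
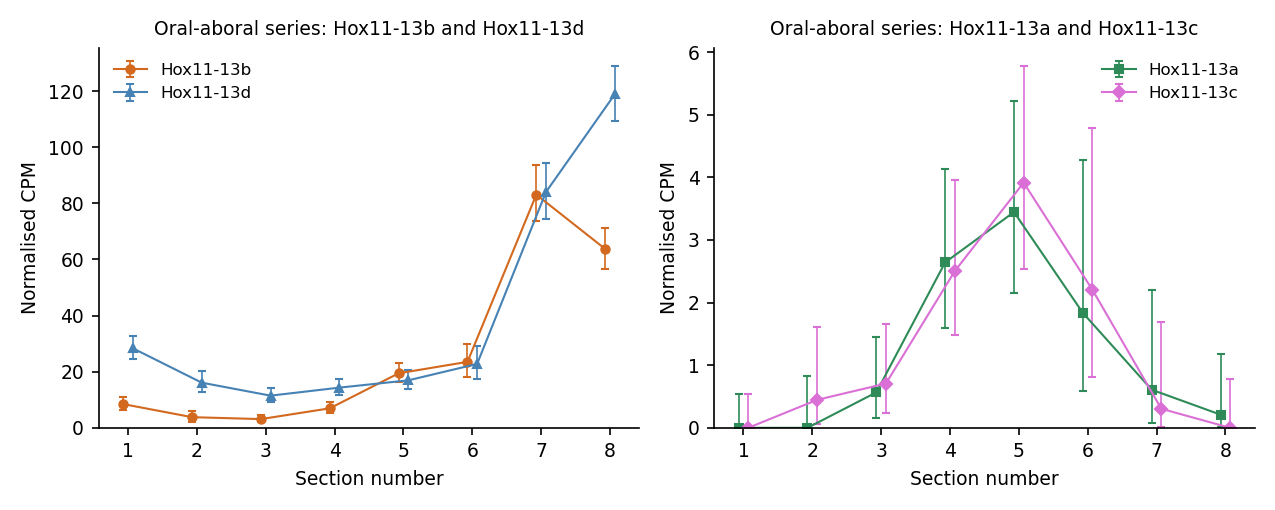
Normalised CPM (y axis, linear) against section number (x axis) in the 8 sections of the oral-aboral series, for Hox11-13b and Hox11-13d in one panel and Hox11-13a and Hox11-13c in the other, with exact Poisson 95% intervals as bars. Hox11-13b and Hox11-13d reach 83.1 and 118.8 in sections 7 and 8, while Hox11-13a and Hox11-13c, on a smaller scale, reach 3.45 and 3.92 in section 5.

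Hox11-13a and Hox11-13c followed another course across the same 8 sections. Hox11-13a had 0, 0, 4, 19, 22, 5, 2 and 1 counts in sections 1 to 8, and Hox11-13c had 0, 2, 5, 18, 25, 6, 1 and 0. Both were therefore highest in section 5 (3.45 and 3.92 normalised CPM), with section 4 next (2.64 and 2.50) and intervals of these 2 sections that overlapped for both genes. In sections 3 to 6 Hox11-13a had 50 counts, or 2.29 CPM of the summed total (1.70 to 3.01), against 3 counts in sections 1, 2, 7 and 8, or 0.147 CPM (0.0303 to 0.429). Hox11-13c had 54 counts in sections 3 to 6, or 2.47 CPM (1.85 to 3.22), against 3 counts in sections 1, 2, 7 and 8. The sections grouped here were chosen with the profile known, so these values are a description.

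Of the 5 genes, 4 had enough counts to be fitted in the oral-aboral series. A smooth profile (a natural spline of position with 3 degrees of freedom) departed from a flat line for all 4, where 44.1% of all loci tested did so. Adjusted p from edgeR's quasi-likelihood test was 0.000700 for Hox11-13d, 0.000758 for Hox11-13b, 0.00112 for Hox11-13a and 0.00192 for Hox11-13c. With so large a share of all loci called, no weight is put on the count of 4. Hox11-13a and Hox11-13c passed the low-count filter through the middle sections where they were high, so nothing is read from their calls, and neither could be fitted without section 4, 5 or 6.

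A straight line over section number was fitted too, and how well it described these profiles was not measured. None of the 4 genes had an adjusted p below 0.05 for the linear trend, which 0.754% of all loci passed (0.688% rising and 0.0658% falling with section number). By unadjusted p 2 of 4 lay under 0.05, and DESeq2 called 1 and limma-trend 0. Hox11-13b had a fitted log2 change of 4.08 ± 0.85 between the first and the last section (SE, edgeR adjusted p = 0.101) and Hox11-13d one of 2.39 ± 0.78 (adjusted p = 0.301). DESeq2 gave 4.11 for Hox11-13b with an adjusted p of 0.00183, and without section 1 the edgeR change was 6.06 (adjusted p = 0.0129). Hox11-13a stood at 1.98 ± 2.55 (adjusted p = 0.946) and Hox11-13c at 1.22 ± 2.65 (adjusted p = 0.99978).

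Markers of other tissues also varied across these sections, in differing directions. Summed normalised CPM of the 3 endoderm and gut markers that have a row (of 7 listed, FoxA, Nkx2.1 and Nkx2.2) were 48.6 to 119.6 in sections 7 and 8, 738.5 to 907.4 in sections 3 to 6 and 97.5 to 291.6 in sections 1 and 2. FoxA, a forkhead factor of endoderm, stood at 67.3 and 12.6 normalised CPM in sections 7 and 8, where Hox11-13b and Hox11-13d were high, and at 481.8 to 540.9 in sections 3 to 6, where Hox11-13a and Hox11-13c had nearly all their counts. The 2 aboral and coelomic markers with a row (of 5 listed, BMP2-4 and Pax2-5-8) summed to 284.3 to 355.9 in sections 7 and 8, 90.1 to 132.9 in sections 3 to 6 and 107.5 to 162.3 in sections 1 and 2. The 6 ectoderm and nervous system markers with a row (of 8) summed to 25.3 to 32.8, 85.9 to 106.3 and 43.9 to 66.4 in the same sections. Hedgehog, 1 of these 6, gave most of that sum in sections 5 and 6 (63.4 of 93.2 and 58.8 of 85.9). In sections 5 and 6 Otx stood at only 0.47 and 0, and Pax6 at 1.41 and 1.10. Otx, a homeobox gene of anterior ectoderm in many animals, had 0 counts in sections 6 to 8. Of the 2 aboral and coelomic markers, BMP2-4 was lowest in section 1 (34.9), where Pax2-5-8 stood at 127.4. None of the 3 skeletal and none of the 2 muscle markers listed has a named row. The part of tissue composition in the Hox11-13 profiles was not tested.

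Across the width of the arm Hox11-13d was low in the middle and high on both sides. In left-right sections 6 to 11 it read 38.4, 25.5, 24.1, 11.9, 15.8 and 18.9 normalised CPM. Sections 1 to 5 gave 102.3, 113.5, 68.0, 55.0 and 54.8, and sections 12 to 16 gave 41.1, 65.1, 86.0, 95.8 and 106.9. The lowest section was 9, the highest were 1, 2 and 16, and no middle section reached any outer one. The mean was 22.4 ± 9.33 in sections 6 to 11 (SD, n = 6), against 78.9 ± 25.3 in sections 1 to 5 and 12 to 16 (n = 10), which is 3.52-fold lower in the middle. The 2 sides had means of 79.0 ± 26.2 in sections 12 to 16 and 78.7 ± 27.5 in sections 1 to 5.

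Hox11-13b had no such separation of middle and outer values. In sections 6 to 11 it read 22.2, 10.2, 6.33, 5.64, 5.92 and 15.1 normalised CPM. The outer sections gave 7.87, 10.3, 15.3, 18.9 and 17.9 in sections 1 to 5, and 12.1, 7.61, 24.6, 9.38 and 16.3 in sections 12 to 16. Middle and outer values overlapped in part, with means of 10.9 ± 6.61 in sections 6 to 11 and 14.0 ± 5.52 in the other 10. Sections 8 to 10 (6.33, 5.64 and 5.92) lay below the lowest outer value of 7.61, and the remaining middle sections lay within the outer range. Section 14, the highest, rests on 6 counts in the shallowest library, with an interval of 9.01 to 53.5. Read by eye, levels were higher between the centre and the edges: sections 3 to 6 and 11 to 14 averaged 16.7 ± 5.42 (n = 8), against 7.02 ± 2.14 in sections 7 to 10 (n = 4) and 11.0 ± 3.67 in sections 1, 2, 15 and 16 (n = 4). This grouping was made after the values were seen and was given no test.

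**Figure D2:**
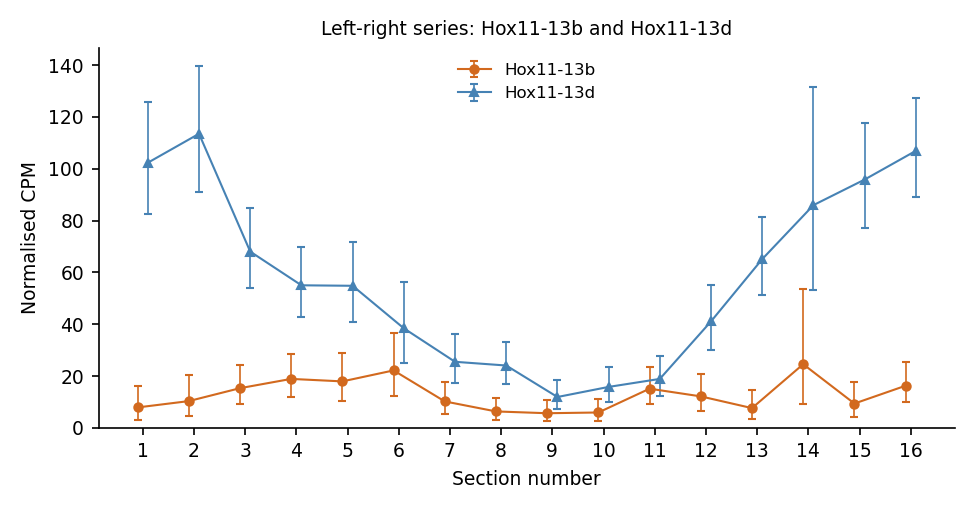
Normalised CPM (y axis, linear) of Hox11-13b and Hox11-13d against section number (x axis) in the 16 sections of the left-right series, with exact Poisson 95% intervals as bars. Hox11-13d dips to 11.9 in section 9 between sides above 100 in sections 1, 2 and 16, while Hox11-13b stays between 5.64 and 24.6.

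The midline fit, in which the square of position contrasts the centre with the edges, gave Hox11-13d a log2 difference of centre minus edge of -2.57 ± 0.34 (SE, edgeR adjusted p = 3.65e-05). It was called while Hox11-13b was not (-0.33 ± 0.49, adjusted p = 0.663), so 1 of the 2 fitted genes was higher at the edges, as were 8.73% of all loci (22% were called in either direction). The median over all loci was 0.14. With libraries scaled by total count alone that median was 0.49 and the Hox11-13b value turned to 0.04, while Hox11-13d stood at -2.21. No slope from one side to the other was called for either gene (log2 -0.16 ± 0.36, adjusted p = 0.905 for Hox11-13d, and -0.19 ± 0.53, adjusted p = 0.930 for Hox11-13b). In that slope test 1.08% of all loci were called (0.92% rising and 0.157% falling with section number), and for the 2 genes unadjusted p, DESeq2 and limma-trend likewise gave 0 calls. The spline had an adjusted p of 2.00e-05 for Hox11-13d and 0.367 for Hox11-13b, with 25.6% of loci called.

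Endoderm and gut markers ran against Hox11-13d here too, with a summed level of 81.6 to 251.5 normalised CPM in sections 6 to 11 and 32.7 to 101.2 in the outer sections. FoxA was at 0 in section 1, where Nkx2.1 gave 33.7 of a sum of 34.9, and at 123.2 in section 7. The aboral and coelomic markers were at 74.5 to 146.3 in sections 6 to 11 and at 94.3 to 254.1 in the outer ones. These 2 markers differed on 1 side. BMP2-4 read 34.9 to 62.1 in sections 6 to 11 and 60.7 to 103.2 in sections 1 to 5. In sections 12 to 16 BMP2-4 read only 30.8 to 58.3, where Pax2-5-8 reached 161.7. The ectoderm and nervous system markers were at 29.6 to 370.8 in sections 6 to 11 and at 12.5 to 131.7 in the outer ones. Otx had 0 counts in sections 1 to 6 and 14 to 16. Their part in the Hox11-13d profile was not tested.

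Hox11-13a had 3 counts in the whole left-right series, 2 of them in section 2 and 1 in section 9, which is 0.173 CPM (0.0357 to 0.505), and Hox11-13c had 0, which allows up to 0.173 CPM of the 17349086 counts. Both genes were also at 0 in all 22 proximo-distal sections, where the 8679359 counts allow up to 0.346 CPM. In the oral-aboral series the same genes summed to 1.25 CPM (0.939 to 1.64) and 1.35 CPM (1.02 to 1.75). Proximo-distal sections 12 to 22, in which FoxA read 64.6 to 1504.5 normalised CPM, allow up to 0.606 CPM for each of them. Hox11-13e had 1 count, in oral-aboral section 1, of 42284815 counts in that series, and can be given no profile.

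Along the length of the arm both genes were scattered over most sections, and neither passed a test of a straight gradient. Hox11-13b had 0 to 19 counts per section, at least 1 count in 20 of 22 sections, and a median of 16.7 normalised CPM. It was at 0 in sections 1 and 22, the end sections, and highest in sections 19 (40.1), 7 (37.4) and 5 (34.0). Its mean of 18.0 ± 13.9 in sections 16 to 22 compares with 14.8 ± 14.8 in sections 1 to 7 (SD, n = 7 each), a difference well within the spread. Neighbouring sections differed as much: section 18 read 7.25 and section 19 read 40.1, with intervals of 0.878 to 26.2 and 20.7 to 70.1 that overlap.

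Hox11-13d was at 0 in sections 1 and 16 and highest in sections 8 (26.7), 2 (24.0) and 7 (23.6 normalised CPM), with a median of 9.22 over the 22 sections. Sections 16 to 22 averaged 6.25 ± 5.57, against 13.4 ± 9.30 in sections 1 to 7, and the values overlapped. Sections 12 to 22, which also hold the abundant unnamed locus, averaged 7.38 ± 4.95, against 14.98 ± 8.64 in sections 1 to 11 (n = 11 each).

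**Figure D3:**
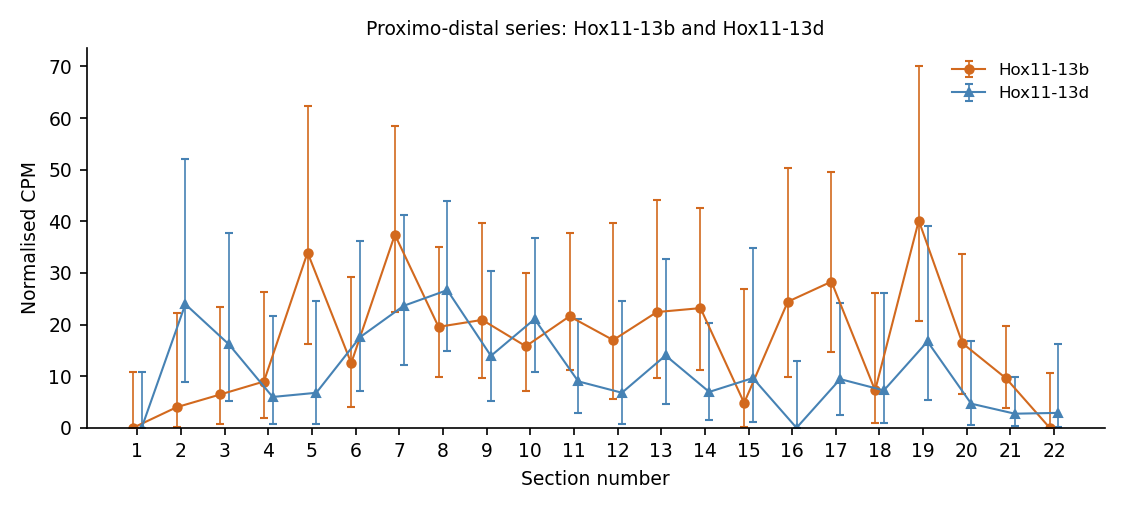
Normalised CPM (y axis, linear) of Hox11-13b and Hox11-13d against section number (x axis) in the 22 sections of the proximo-distal series, with exact Poisson 95% intervals as bars. Intervals are wide at 0 to 19 counts per section; Hox11-13d does not exceed 16.7 from section 12 on, and Hox11-13b reaches 40.1 in section 19.

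Neither gene passed the linear trend along the arm (log2 change from section 1 to section 22 of 0.27 ± 0.75, edgeR adjusted p = 0.807 for Hox11-13b, and -1.58 ± 0.73, adjusted p = 0.0875 for Hox11-13d), a test that 39.4% of all loci passed. At an unadjusted p under 0.05 the count was 1 of 2, and DESeq2 and limma-trend called 0. The spline was called for 1 of the 2, Hox11-13d (adjusted p = 0.0203), and not for Hox11-13b (adjusted p = 0.0597), where 53.4% of loci were called and DESeq2 and limma-trend each called both genes. The call of Hox11-13d was lost without section 8 (adjusted p = 0.0671) or section 21 (0.0648). Its trend was called without section 1 (log2 change -2.13, adjusted p = 0.0114), without section 19 (-1.90, adjusted p = 0.0488) and with total count alone as the scaling (-2.38, adjusted p = 0.0143), where the median of all loci was -0.66 and Hox11-13d lay 1.72 below it. Summed endoderm and gut markers were 334.5 to 2423.5 normalised CPM in sections 16 to 22 and 52.9 to 103.4 in sections 1 to 7. In sections 1 to 7 that sum was mostly Nkx2.1, at 41.1 to 88.3, with FoxA at 0 to 20.9. Aboral and coelomic markers summed to 72.5 to 186.5 in sections 16 to 22 and 254.1 to 499.1 in sections 1 to 7. The part of these markers in the Hox11-13d values was not tested.

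Within a library, the ratio of Hox11-13b to Hox11-13d counts is free of library scaling but scales with the unknown lengths of both genes. A change of that ratio along an axis is free of both and shows whether the 2 profiles differ, whereas the size of a share does not say which gene was expressed more. Of the counts of both genes together, Hox11-13b made up 60.3% in the proximo-distal series (152 of 252, exact binomial interval 54.0 to 66.4%), 38.4% in the oral-aboral series (36.5 to 40.4%) and 18.5% in the left-right series (16.2 to 20.9%). Within the oral-aboral series the share was 23.0, 19.1, 21.4, 32.7, 53.4, 50.8, 49.7 and 34.9% in sections 1 to 8. It was highest in sections 5 to 7 and lower in section 8, where Hox11-13d peaked.

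In oral-aboral sections 5 to 8 the mean log2 ratio was -0.17 ± 0.49, against -1.65 ± 0.43 in sections 1 to 4 (SD, n = 4 each), a difference of 1.48 without overlap of sections (exact two-sided permutation p = 0.0286, the smallest that 70 arrangements allow, 0.0429 adjusted over the 3 axes). Leaving out any 1 section raises the smallest possible adjusted p to 0.0857, which each of the 8 such tests gave. In left-right sections 6 to 11 the mean log2 ratio was -1.08 ± 0.52 (n = 6), against -2.42 ± 0.80 in the outer sections (n = 10), a difference of 1.34 (exact two-sided permutation p = 0.00175, adjusted 0.00524). Hox11-13b accordingly made up 31.6% of both genes' counts in the middle (25.8 to 38.0%) and 14.9% in the outer sections (12.6 to 17.4%). In proximo-distal sections 16 to 22 the mean log2 ratio was 1.05 ± 1.26, against -0.04 ± 1.19 in sections 1 to 7 (n = 7 each), and the difference of 1.09 was within the spread (exact two-sided permutation p = 0.125, adjusted 0.125). Section 1, with 0 counts of both genes, entered this test as a log2 ratio of 0, and section 22, with 0 and 1 counts, as -1. Without section 5 (difference 1.41, adjusted p = 0.0466) or without section 22 (1.43, adjusted p = 0.0385) the difference passed the threshold. The direction of the 3 differences compares sections within each axis, and the axes were not compared with each other.

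**Figure D4:**
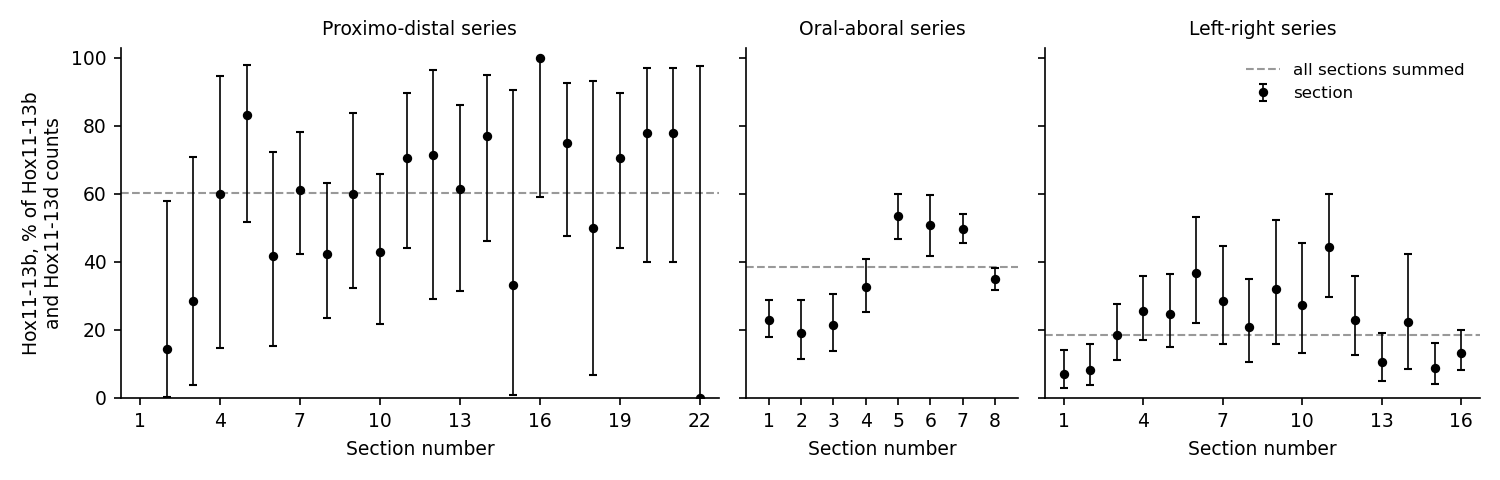
Share of Hox11-13b in the summed counts of Hox11-13b and Hox11-13d (y axis, %) against section number (x axis) in the 3 series, with exact binomial 95% intervals as bars and the share over all sections of a series as a dashed line. The share lies near 50% in oral-aboral sections 5 to 7 against 19.1% to 32.7% in sections 1 to 4, and proximo-distal intervals are wide because few counts were read per section (section 1, with 0 counts of both genes, has no point).

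The other Hox genes did not share 1 profile with Hox11-13d. At the left-right midline 7 of 8 were fitted (Hox2 had too few counts), of which 3 rose to the middle (13.3% of all loci) and 3 to the edges (8.73%). Their median was 1.46 on the log2 scale, against 0.14 over all loci. Hox8, a central Hox gene, had the clearest rise to the middle (log2 5.22 ± 0.60, edgeR adjusted p = 6.81e-06), with 52.1 ± 21.7 normalised CPM in the 6 middle sections and 10.1 ± 8.65 in the 10 outer ones, followed by Hox9-10 (1.47 ± 0.46, adjusted p = 0.0287) and Hox7. At the edges Hox1 (-1.43 ± 0.30, adjusted p = 0.00228) and Hox5 (-1.56 ± 0.37, adjusted p = 0.00501), both of the anterior group, were higher, as was Hox4. Hox5 averaged 30.2 ± 14.2 in the middle and 68.5 ± 13.5 outside it. The called genes of the anterior group were thus on the edge side with Hox11-13d, and the 3 of the central group (Hox7, Hox8 and Hox9-10) in the middle, a description over few genes, while the anterior Hox3 stood at 1.46 ± 0.56 (adjusted p = 0.0655). No sign of these 7 turned with RLE size factors or total count alone. For the slope from side to side edgeR called 0 of 7, with 1 of 7 at an unadjusted p under 0.05 (Hox3, log2 -1.49 ± 0.60, adjusted p = 0.317) and 0 by DESeq2 and by limma-trend, and the median was -0.30.

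**Figure D5:**
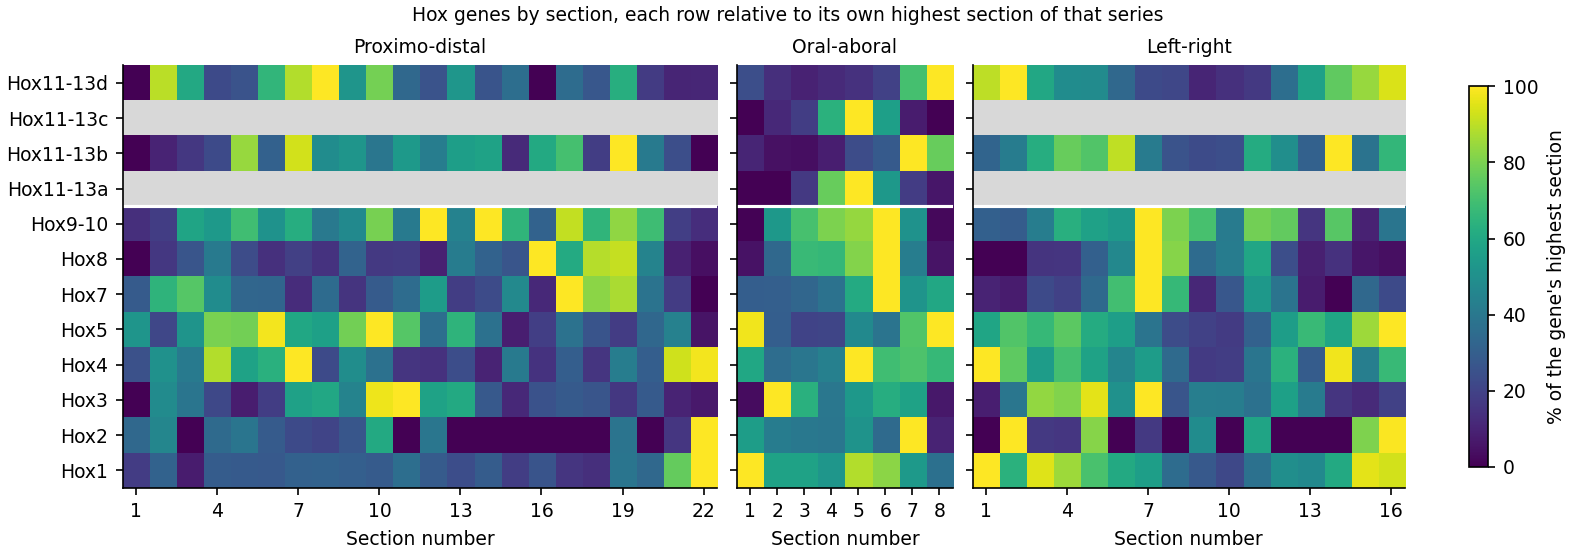
Level of each Hox gene in each section as a percentage of that gene's highest section in the same series (colour), with genes as rows, section number on the x axis and the 3 series as panels. Rows with under 10 counts in a series are grey (Hox11-13a and Hox11-13c in the proximo-distal and left-right series), Hox11-13e is not drawn, and the white line parts the Hox11-13 genes from the rest; Hox11-13b and Hox11-13d are brightest in oral-aboral sections 7 and 8, while Hox7, Hox8 and Hox9-10 are brightest in section 6.

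In the oral-aboral series the spline called 4 of the 8 other Hox genes (Hox1, Hox5, Hox7 and Hox8), near the 44.1% of all loci called. Hox7, Hox8 and Hox9-10 were highest in section 6, between the section 5 peak of Hox11-13a and Hox11-13c and the section 7 peak of Hox11-13b. This order of highest sections was not tested, and section 6 is the shallowest library of the series. Hox9-10, which the spline did not call, ranged only from 21.1 to 29.7 normalised CPM over sections 3 to 6. Hox8 read 4.30, 28.6, 57.5, 56.6, 69.2, 84.8, 35.9 and 4.63 normalised CPM in sections 1 to 8, so it was low in section 8, where Hox11-13d peaked. Hox5 was high in sections 8 (75.1) and 1 (73.6) and lowest in section 3 (15.1). For the linear trend edgeR called 0 of 8, with 1 of 8 at an unadjusted p under 0.05 (Hox7, 1.46 ± 0.48, adjusted p = 0.302) and 0 by DESeq2 and by limma-trend; Hox4 had 0.77 ± 0.49 (adjusted p = 0.709), and on the falling side Hox1 had -0.67 ± 0.47 (adjusted p = 0.755) and Hox3 -0.63 ± 1.63 (adjusted p = 0.99978). The median of the 8 was 0.45. Along the proximo-distal axis 2 of 7 fitted genes passed the trend, Hox1 rising (1.32 ± 0.40, adjusted p = 0.0104) and Hox5 falling (-1.57 ± 0.51, adjusted p = 0.0156), with Hox8 at 1.79 ± 0.76 (adjusted p = 0.0622), Hox3 at -0.90 ± 0.79 (adjusted p = 0.389) and a median of 0.03. The trend rose for 20.3% and fell for 19.1% of all loci. The spline called 5 of the 7, where 53.4% of all loci were called.

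A list of developmental regulators of other animals (Wnt ligands, Nkx6, Engrailed, Pax2-5-8, Msx, Gbx and the like) had a row for 14 of its 19 members. It was drawn up for posterior and trunk genes but is not limited to them. At the left-right midline 8 of 14 were higher in the middle, all but Nkx6 of them Wnt ligands, where 13.3% of all loci were, and 2 at the edges, where 8.73% were, with a median of 2.60 on the log2 scale. Wnt1 stood at 5.65 ± 0.70 (edgeR adjusted p = 1.70e-05) and Nkx6 at 3.38 ± 0.60 (adjusted p = 0.000522). The 2 on the edge side with Hox11-13d were Pax2-5-8, a paired-box factor (-1.68 ± 0.26, adjusted p = 0.000167), and Msx, a homeobox factor (-1.18 ± 0.35, adjusted p = 0.0205). Pax2-5-8 is also counted above among the aboral and coelomic markers. Along the proximo-distal axis 2 of 12 fitted rose (Nkx6 and Wnt1) and 5 fell (Pax2-5-8, Wnt3, Wnt9, Msx and Wnt10), against 20.3% and 19.1% of all loci, with a median of -0.60. In the oral-aboral series the spline called 10 of 14, against 44.1% of all loci. For the linear trend edgeR called 0 of 14, where 0.754% of all loci were called, with 3 at an unadjusted p under 0.05, 3 by DESeq2 and 0 by limma-trend, and the median was -1.36.

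Likeness of profile was ranked by Spearman's rho of log2 normalised CPM over the sections of an axis, among named genes that passed the low-count filter. These values are descriptive and carry no p, since all sections of a series come from 1 arm and share depth and tissue make-up. Over the 8 oral-aboral sections the named gene most like Hox11-13b was Hox11-13d (rho 0.881), before BMP2-4 (0.833), a signalling ligand, and Hox4 (0.810), of 62 named genes. Only 181 of 19768 loci were more alike to Hox11-13b than Hox11-13d was, and 467 were more alike to Hox11-13d than Hox11-13b was. Most like Hox11-13d were Hox5 (0.952) and Pax2-5-8 (0.905), and least like it were Dmbx (-0.994), Wnt6 (-0.976) and Wnt7 (-0.952). Least like Hox11-13b were Otx (-0.952), Wnt6 (-0.905) and Dmbx (-0.898), Otx and Dmbx being homeobox genes of the anterior nervous system in many animals.

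Hox11-13a and Hox11-13c entered this ranking only through sections 4 to 6, where they were high, and had 0 to 5 counts in the others, so their ranks there rest on few reads and nothing is read from the values that follow. By rho Hox11-13c was most like FoxA, the Wnt receptor Fzd5-8 and the ligand Hedgehog (rho 0.970 each) in the oral-aboral series and least like Lhx1-5 (-0.994), Otp (-0.946) and Hbn (-0.922). For Hox11-13a the most alike were Irx (0.898), Hox11-13c (0.837) and Dbx (0.826), and the least alike Tbx2-3 (-0.922), Otp (-0.910) and Lhx1-5 (-0.850). With Hox11-13b and Hox11-13d, Hox11-13c had a rho of -0.28 and -0.65, and Hox11-13a of 0.22 and -0.23. By rho Hox11-13b thus lay nearest to Hox11-13d, while 1 named gene was more alike to Hox11-13a than Hox11-13c was, and 11 named genes were more alike to Hox11-13c than Hox11-13a was. Both rarer genes have 0 counts in 2 of the 8 sections, which tie. In the table's transcript model numbers Hox11-13b (20846.6), Hox11-13a (20847.1) and Hox11-13c (20848.1) are consecutive, and Hox11-13d (20124.1) is apart.

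Over the 16 left-right sections Hox11-13d was again most like Pax2-5-8 (rho 0.956) and Hox5 (0.862), followed by Msx (0.809), and least like FoxA (-0.924), Sfrp1-5 (-0.900), a Wnt antagonist, and Hox8 (-0.898), of 53 named genes. Pax2-5-8 and Hox5 were its nearest named genes in both series, which come from different specimens. The mean of Pax2-5-8 was 56.3 ± 16.9 normalised CPM in the 6 middle sections and 117.9 ± 31.6 in the 10 outer ones, and across the oral-aboral series it read 142.7 and 252.2 in sections 7 and 8, 31.4 to 49.9 in sections 3 to 6 and 127.4 and 58.1 in sections 1 and 2. For Hox11-13b likeness was lower: Hox4 (0.606), Lhx1-5 (0.576) and Hox1 (0.453) came first, and Dmbx (-0.723), Tailless (-0.703) and Lhx3-4 (-0.703) last. Between Hox11-13b and Hox11-13d rho was 0.347, and of 16522 loci 2980 were more alike to Hox11-13b and 3636 to Hox11-13d.

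In the proximo-distal series, with few counts per section, likeness was weak for both genes. Hox11-13b came closest to Fzd9-10 (rho 0.538), Hox8 (0.490) and Hox9-10 (0.479) and was least like Lmx (-0.413), ADMP (-0.379) and Tolloid (-0.290), of 44 named genes over 22 sections. For Hox11-13d the closest were Hox3 (0.582), BMP2-4 (0.463) and Wnt3 (0.451) and the least alike Nkx2.1 (-0.483), Six3-6 (-0.481) and Nkx2.2 (-0.452). Between both genes rho was 0.171, and of 11066 loci 2924 were more alike to Hox11-13b and 3541 to Hox11-13d.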

How the data were processed

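Counts are raw counts per transcript model and section, as deposited by the authors, whole numbers with a different total in each of 46 libraries. Per the labels' protocols, RNA went into full-length Iso-Seq libraries, while the mapping and counting tools and the genome build are not given in these sources. Rows of 1 locus were summed for unnamed loci (25794 rows, 23869 loci in all). Each named gene, the Hox genes included, is 1 row, so its level is that of the 1 transcript model behind its symbol. Named rows carry another assembly tag than unnamed ones, and whether they share reads was not examined.

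Each axis was fitted alone with edgeR 4.0.16 in R 4.3.3 (filterByExpr with minimum count 5 and minimum total 15, TMM, quasi-likelihood test) and Benjamini-Hochberg adjustment over all loci, called at 0.05. Standard errors derive from the change and its F statistic. Fits were tested on simulated data. The log2 ratio used a pseudocount of 1 and scipy 1.17.1, likeness a prior count of 2. Alternatives used DESeq2 1.42.0 and limma 3.58.1 (limma-trend), other scalings, filters and models of position, and each section left out. Neighbouring sections were not separate animals, and no pair of libraries agreed within sampling noise (smallest chi-square per degree of freedom 1.44).

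All Hox11-13 rows are described. Of the other Hox genes, the 2 with the smallest p in each direction per test get values, and the 3 most and least alike named genes are given. Members and lists were chosen with earlier results of these data known.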

Additional observations from a re-analysis of the deposited data

How the results depend on the processing

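No paired analysis was possible because section numbers mark positions on different axes and no result compares groups that share them. Of 467 values of Hox11-13 results under alternatives, 430 kept their direction and side of the threshold, 18 passed it newly, 10 lost it and 9 changed sign. Of the 10, 8 are the oral-aboral ratio with 1 section left out, where the smallest adjusted p the design allows is 0.0857. For the others the cause was not tested. The oral-aboral spline calls of Hox11-13b and Hox11-13d held under every alternative run (those of Hox11-13a and Hox11-13c had no value in 3 of 8 fits without 1 section, so no stability is read from them), and the left-right midline and spline calls of Hox11-13d under all. Hox11-13b spline along the arm, not called, was called with total count alone (adjusted p 0.0206), no low-count filter (0.0396), DESeq2 (0.0346), limma-trend (0.00733) and a spline with 5 degrees of freedom added after the data were seen (0.00450). Its trend there, 0.27, turned to -0.53 with total count alone and to -0.37 with depth as a covariate, and Hox11-13d's was called at -2.38 with total count alone and at -1.99 without both end sections. The oral-aboral trend of Hox11-13b was called with DESeq2 (4.11) and without both end sections (6.68). Signs of values near 0 turned for the left-right midline of Hox11-13b (0.038, total count alone) and the slope of Hox11-13d (0.014, total count alone) and Hox11-13b (0.013, limma-trend).

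With 1 section left out, the trend along the arm ran from -0.17 to 0.72 for Hox11-13b (below 0 without section 1, at -0.17, or 19, at -0.09) and from -2.13 to -1.28 for Hox11-13d, and the spline's adjusted p from 0.0180 to 0.216 and from 0.00467 to 0.0671. Hox11-13b's spline was called without section 5 (0.0265), 10 (0.0457), 15 (0.0443) or 19 (0.0180). The oral-aboral trend ran from 3.51 to 6.06 for Hox11-13b and from -0.80 (without section 1) to 3.54 for Hox11-13c, the left-right slope of Hox11-13d from -0.46 to 0.054 (above 0 without section 16), and the log2 ratio difference from 0.77 to 1.43 in the proximo-distal and 1.36 to 1.73 in the oral-aboral series.

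Loci called in the oral-aboral trend, 149, were 599 with DESeq2, 84 without both end sections, 93 with depth as a covariate, 0 with sections 6 to 8 against 1 to 3, and 64 to 358 with 1 section left out. The oral-aboral spline called 4621 loci without both end sections, against 8722, and the left-right slope 288 with total count alone and 51 with limma-trend, against 178. With total count alone the share of calls that were positive was 21.8% instead of 51.5% for the trend along the arm, 76.7% instead of 91.3% for the oral-aboral trend and 84.95% instead of 60.3% for the left-right midline. Median log2 changes of all loci were then -0.66, -0.35 and 0.49, and relative to them Hox11-13d was at -1.72, 2.33 and -2.70 and Hox11-13b at 0.13, 4.07 and -0.45.

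Proximo-distal sections, with 0 to 19 counts of Hox11-13b, limit what can be said along the arm.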
